A study of Mus musculus with 21 samples.

Results

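The lungs described here were the 10 of 21 fetal mouse lungs whose arrays stayed within a set limit for markers of heart, thymus, oesophagus and liver. In them cigarette smoke (CS) exposure of the mother was set against filtered air (AIR). The lungs were chosen from measured values by a fixed rule. In each array the log2 intensities of 3 marker genes per tissue were averaged, and an array was dropped if its mean for any of the 4 tissues lay over 1 above the median of the 21 arrays. The retained lungs came from 7 CS fetuses (2 males and 5 females) and 3 AIR fetuses (1 male and 2 females), and the dropped ones from 5 CS and 6 AIR fetuses. All were wild-type Balb/c fetuses at E18.5, late in gestation. CS dams inhaled smoke from gestational day 2.5 to 17.5, and the control dams, which the sample labels call untreated, inhaled filtered air by the study's methods. Each fetus gave 1 Affymetrix Mouse Gene 2.1 ST array of whole lung without pooling. The methods took a male and a female per litter, but the sample labels do not say which fetuses were littermates, and p-values below measure the spread between fetuses that may share a litter.

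Near birth the mouse lung passes from the building of airways and vessels to the thinning of its air sacs. Dividing progenitors become fewer, alveolar type II cells store and secrete surfactant, a film of lipid and protein that keeps the air sacs open, and club cells line the airways with secretory proteins. Heart, thymus, oesophagus and, below the diaphragm, liver lie against the lung, and fragments left at dissection add their transcripts to a whole lung sample.

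The marker values that chose the arrays are a description and were not tested. The medians of the 21 arrays were 6.65 for the heart set, 2.03 for the thymus set, 4.31 for the oesophagus set and 1.94 for the liver set. Krt5 and Rag1 have no probe set of their own on the array, so the rule rested on 10 of its 12 marker genes. Closest to the limit among the retained arrays was AIR female 8, with a heart set 0.687 above the median. The dropped array nearest to it was AIR male 1, with an oesophagus set 1.01 above the median.

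The thymus and liver markers of the retained lungs lay near the median of all probe sets, which was between 2.104 and 2.196 in every array. Cd3e, a chain of the T cell receptor complex, ranged from 1.43 to 2.02 in retained CS lungs and from 1.56 to 2.04 in retained AIR lungs. Albumin (Alb) ranged from 2.01 to 2.71 in CS lungs and from 2.24 to 2.52 in AIR lungs. The heart markers stayed bright in every retained lung. Tnnt2, cardiac troponin T, ranged from 6.94 to 8.27 in CS lungs and from 7.48 to 8.71 in AIR lungs, and Myl7, an atrial myosin light chain, from 6.95 to 8.49 in CS lungs and from 7.62 to 8.40 in AIR lungs. These lungs were therefore not free of heart transcripts, and they are called retained lungs after the rule. In rodents, cardiac muscle also sheathes the pulmonary veins. Krt15, an epithelial keratin of the oesophagus set, ranged from 5.998 to 6.62 in CS lungs and from 5.74 to 5.96 in AIR lungs, without overlap.

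Lung markers were bright throughout. Sftpc, the surfactant protein C of type II cells, ranged from 11.21 to 11.62 in CS lungs and from 11.54 to 11.67 in AIR lungs. Nkx2-1, the transcription factor of lung epithelium, ranged from 6.28 to 6.67 in CS lungs and from 6.26 to 6.52 in AIR lungs. Cdh5, the cadherin of endothelium, ranged from 8.51 to 9.07 in CS lungs and from 8.98 to 9.16 in AIR lungs.

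**Figure D1:**
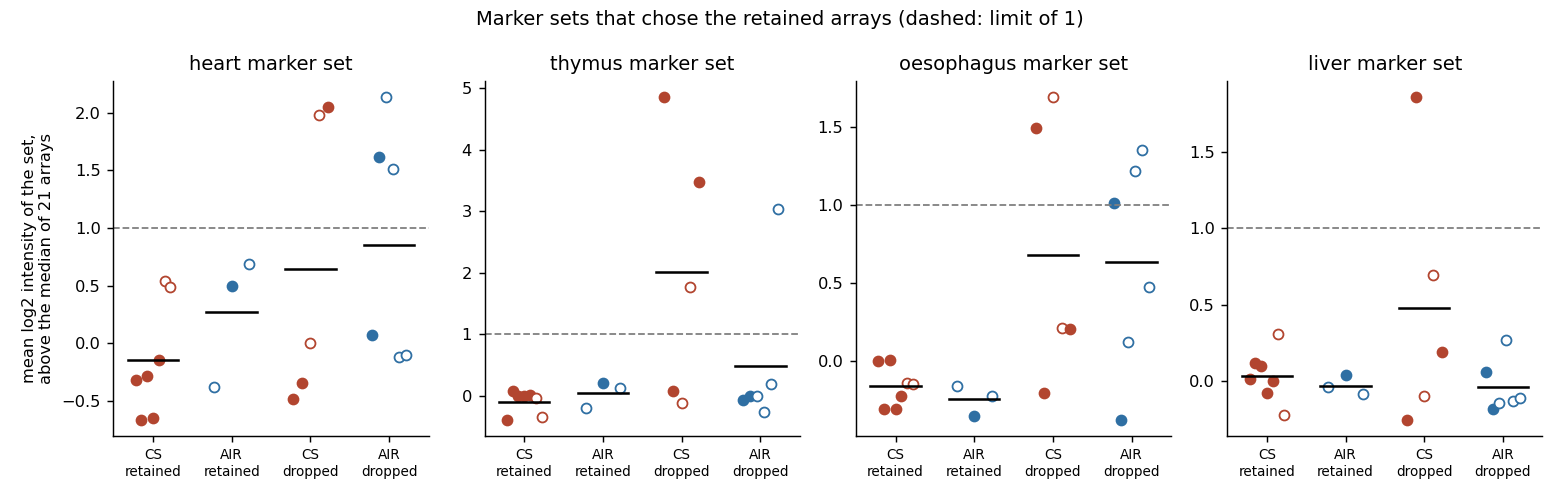
The 4 marker set means that chose the arrays, per array, as log2 intensity above the median of 21 arrays, for retained CS (n = 7), retained AIR (n = 3), dropped CS (n = 5) and dropped AIR (n = 6) lungs. Filled points have lower and open points higher animal numbers, black bars are group means, and the dashed line is the limit of 1, which every dropped array exceeds in at least 1 panel.

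The animal numbers in the labels fall into a lower and a higher range at their widest gap, and what they stand for is not given. The retained lungs of the lower range were 5 CS and 1 AIR (female 6), those of the higher range 2 CS and 2 AIR. Exposure and range were thus unevenly mixed, and values within each range are given beside many of the pooled ones below. A difference within the lower range rests on the 1 AIR lung there.

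Over 22179 genes with a probe set of their own, 924 (4.17%) were higher and 764 (3.44%) lower in CS than in AIR lungs at the threshold of the study, that is, a fold change over 1.2 either way and a limma p under 0.05 before adjustment. The median fold of these genes was 1.32, and 15 of them differed over 2-fold. The median difference over all genes was 0.01 on the log2 scale. With a false discovery rate of 10% as the limit, 0 genes (0.0%) were called by limma, with a lowest adjusted p of 0.123 and 1754 genes at an unadjusted p under 0.05. In 346 genes (1.56%) every CS lung lay above every AIR lung, and in 234 (1.06%) every CS lung lay below. An exact permutation test over the 120 regroupings of 7 and 3 lungs cannot give a two-sided p under 0.00833. The genes named below were picked largely for their low p on these arrays.

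Genes of mitosis formed the group with most members higher in CS. Of 43 measured, 29 were higher and 0 lower at the study threshold, against 4.17% and 3.44% of all genes, and all 43 had a positive difference, with a median of 0.55 on the log2 scale. Whole lung arrays cannot tell more dividing cells from more RNA per dividing cell. Ccnb2, a cyclin that partners Cdk1 at entry into mitosis, had a lowest, median and highest log2 intensity of 6.10, 6.43 and 6.93 in the 7 CS lungs, against 5.85, 5.55 and 5.47 in AIR male 4, female 6 and female 8. Every CS lung exceeded every AIR lung. The difference was 0.79 ± 0.17 (SE), a 1.73-fold change, with a limma adjusted p of 0.456 and an exact permutation p of 0.00833. It was 0.97 in the lower and 0.49 in the higher range.

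Aurkb, the kinase that corrects the attachment of chromosomes to the spindle, was lowest at 5.48, with a median of 5.85 and a highest value of 6.34 in CS lungs, against 4.997, 4.79 and 5.003 in the AIR lungs. The groups did not overlap, and the difference was 0.94 ± 0.19 (SE) with a limma adjusted p of 0.343, and 1.19 in the lower and 0.59 in the higher range. Bub1b, which encodes the checkpoint kinase BubR1, averaged 5.32 ± 0.54 (SD, n = 7) in CS lungs and 4.43 ± 0.12 (SD, n = 3) in AIR lungs. Kif15, a spindle motor, averaged 4.58 ± 0.54 (SD, n = 7) in CS lungs and 3.70 ± 0.22 (SD, n = 3) in AIR lungs. Mki67, the proliferation marker Ki-67, was 0.60 higher in CS lungs. All these genes were past the study threshold, and in none of them did the groups overlap.

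The higher mitotic level was carried mainly by lungs of the lower range. Per lung, the mean over the 43 genes had a lowest, median and highest value of 4.90, 5.18 and 5.84 in CS lungs, and 4.57, 4.75 and 4.85 as the lowest, median and highest in AIR lungs, without overlap. CS lungs exceeded AIR lungs by 0.85 within the lower range and by 0.14 within the higher range. Only 2 of the 43 genes were past the threshold within the higher range (2 CS and 2 AIR lungs), and 14 were without AIR female 6, the only AIR lung of the lower range. Over all 22179 genes, 668 were higher and 472 lower within the higher range. With the heart marker mean as a covariate, 16 of the 43 were past the threshold, all of them among the 29, and the median difference was 0.41. Over all 22179 genes that fit called 782 higher and 650 lower. Its covariate is built from marker values that chose the arrays, and what lowered the count was not tested.

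**Figure D2:**
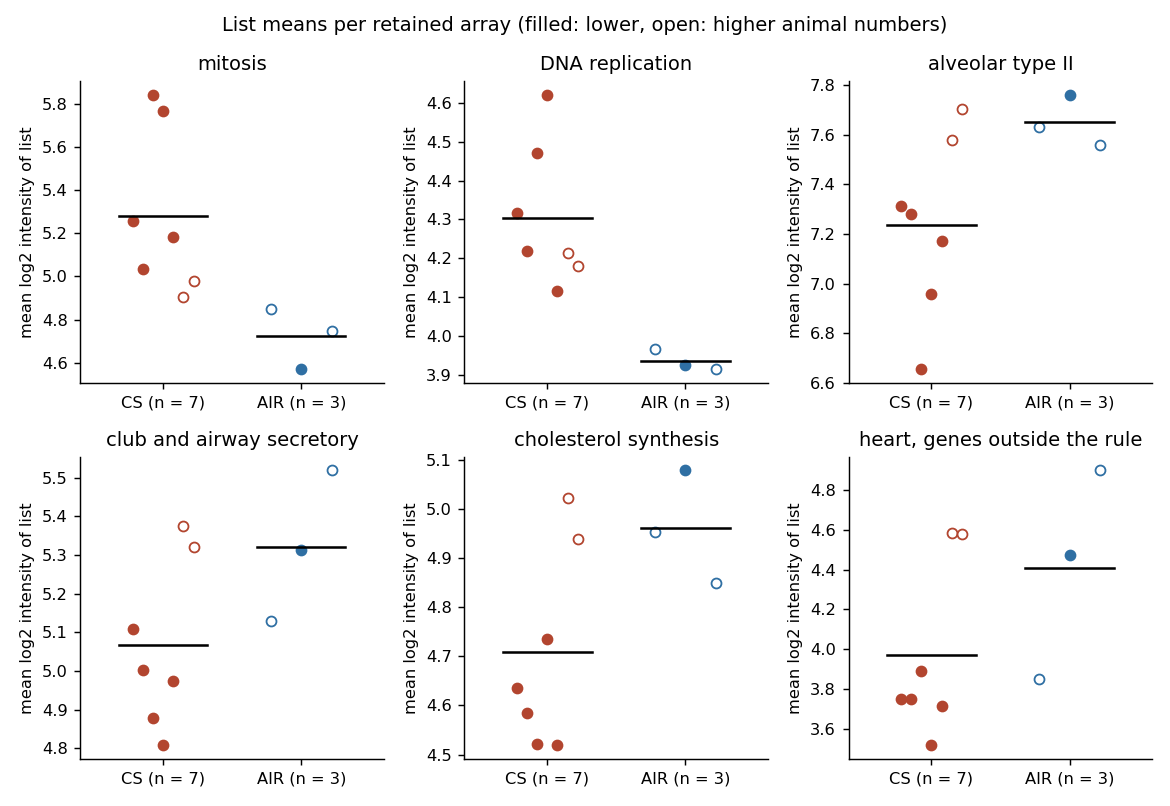
Mean log2 intensity of 6 gene lists in each retained lung, CS (n = 7) left and AIR (n = 3) right, with filled points for lower and open points for higher animal numbers and black bars for group means. The mitosis means of all CS lungs, from 4.90 to 5.84, lie above those of all AIR lungs, from 4.57 to 4.85, and the CS lungs nearest to AIR in the mitosis and alveolar type II panels are the 2 of the higher range.

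Promoters of mitotic genes often carry a CHR element, the landing site of the DREAM and MuvB complexes, beside CCAAT boxes bound by NF-Y. Promoter windows of 300 bases around the start of transcription (RefSeq, GRCm38.p6) were at hand for 36 of the 43 genes. Of their 39 windows, 30 (76.9%) held the letters TTTGAA on either strand, against 15.4% of the 20610 windows of all genes compared. The letters CCAAT, on either strand, stood in 29 windows (74.4%), against 37.7% of all windows, and both motifs stood in 26 (66.7%), against 6.15%. The share with TTTGAA was 80.8% (21 of 26 windows) for mitotic genes past the threshold and 69.2% (9 of 13) for those not past it. For CCAAT the shares went the other way, 69.2% past and 84.6% not past, and for both motifs they were 65.4% and 69.2%. Of the 37 windows of DNA replication genes, 5 (13.5%) held TTTGAA and 22 (59.5%) held CCAAT. These matches of letters are a description and were not tested. The windows of Ccnb2 (chr9:70421505-70421804, minus strand) and Rrm2 (chr12:24708004-24708303, plus strand) are shown because they represent the mitotic and the replication genes with low p in CS against AIR. Capitals mark TTTGAA and CCAAT on either strand, and the matches do not overlap. Ccnb2 has TTTGAA 2 times and CCAAT 3 times, and Rrm2 has TTTGAA 0 times and CCAAT 1 time.
Ccnb2: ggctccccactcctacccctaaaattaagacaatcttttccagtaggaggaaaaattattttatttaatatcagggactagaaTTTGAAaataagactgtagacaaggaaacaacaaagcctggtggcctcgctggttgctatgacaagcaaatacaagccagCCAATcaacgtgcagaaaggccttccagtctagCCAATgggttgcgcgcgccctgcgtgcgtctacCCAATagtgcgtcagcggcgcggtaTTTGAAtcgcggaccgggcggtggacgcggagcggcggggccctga
Rrm2: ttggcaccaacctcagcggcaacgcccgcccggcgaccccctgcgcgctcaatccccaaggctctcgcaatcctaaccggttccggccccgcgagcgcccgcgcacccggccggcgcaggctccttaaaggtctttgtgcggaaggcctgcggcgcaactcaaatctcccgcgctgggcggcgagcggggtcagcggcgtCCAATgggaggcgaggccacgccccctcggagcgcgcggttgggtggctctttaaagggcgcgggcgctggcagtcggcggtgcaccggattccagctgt

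Part of the genes of DNA replication were also higher in CS lungs. Of 38 measured, 19 were higher and 0 lower at the study threshold, with a median difference of 0.36. Rrm2, the small subunit of ribonucleotide reductase, which makes the building blocks of DNA, had a lowest, median and highest value of 3.84, 4.44 and 4.92 in CS lungs, against 3.60, 3.60 and 3.53 in AIR male 4, female 6 and female 8. No AIR lung reached the lowest CS lung. The difference was 0.91 ± 0.19 (SE), a 1.87-fold change, with a limma adjusted p of 0.430. Rfc5, of the clamp loader of the replication fork, averaged 4.59 ± 0.20 (SD, n = 7) in CS lungs and 3.996 ± 0.17 (SD, n = 3) in AIR lungs. Mcm2, a subunit of the replicative helicase, averaged 4.83 ± 0.21 (SD, n = 7) in CS lungs and 4.18 ± 0.44 (SD, n = 3) in AIR lungs, with 1 AIR lung (male 4, 4.67) inside the CS range.

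Among the retained lungs the difference in replication genes was present in both ranges. The mean over the 38 genes was 0.42 higher in CS lungs of the lower range and 0.26 higher in those of the higher range. In the higher range (2 CS and 2 AIR lungs) 7 genes passed the threshold, against 668 higher among all 22179 genes. Rrm2 exceeded AIR by 0.92 in the lower and by 0.81 in the higher range. Leaving out any 1 retained lung left between 15 and 21 of the 38 genes past the threshold. In dropped lungs of the higher range the replication means of CS (4.13 and 4.16) lay within the AIR range of 3.74 to 4.41. The same held there for Rrm2 (4.37 and 4.44 in CS, 4.11 to 5.17 in AIR).

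Of 22 E2F, MYB and DREAM regulators, which switch these genes on and off through the cell cycle, 3 were higher (E2f1, E2f7 and Foxm1) and 0 lower. E2f1 was low, from 2.211 to 2.884 in CS lungs and from 2.135 to 2.366 in AIR lungs. AIR male 4 and female 8 lay among the array medians of 2.104 to 2.196. E2f7, a repressor of E2F targets, ranged from 4.53 to 4.98 in CS lungs, with a median of 4.68, and was 4.34, 4.09 and 4.39 in the AIR lungs. The groups did not overlap, and the difference was 0.42 ± 0.13 (SE), with a limma adjusted p of 0.491, and 0.66 in the lower and 0.19 in the higher range. E2f8, its close relative, averaged 4.10 ± 0.24 (SD, n = 7) in CS lungs and 3.79 ± 0.31 (SD, n = 3) in AIR lungs and did not pass the threshold, but it did without AIR male 4, where the difference was 0.49. Mybl2, the B-Myb activator of mitotic genes, averaged 3.38 ± 0.36 (SD, n = 7) in CS lungs and 3.49 ± 0.13 (SD, n = 3) in AIR lungs, and did not pass it. Foxm1 was 0.38 higher in CS lungs, by 0.78 in the lower range and with a difference of -0.01 in the higher range.

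Part of the secretory genes of the epithelium were lower in CS lungs. Among 23 alveolar type II cell genes, 8 were lower and 0 higher at the study threshold, against 3.44% and 4.17% of all genes, with a median difference of -0.35, and 15 did not pass it. Fewer type II cells and less RNA per cell cannot be told apart here. Sftpb, the surfactant protein B needed for the surfactant film, had a lowest, median and highest value of 8.42, 9.23 and 9.67 in CS lungs, against 9.88, 9.73 and 9.50 in AIR male 4, female 6 and female 8. Most CS lungs lay below the AIR lungs, with an overlap at the top. Sftpc, with a difference of -0.14, did not pass the threshold. Abca3, the transporter that loads lipid into surfactant stores, ranged from 5.54 to 6.70 in CS lungs and was 6.75, 6.73 and 6.73 in the AIR lungs, without overlap. Lyz2, the lysozyme of type II cells and macrophages, averaged 8.24 ± 0.60 (SD, n = 7) in CS lungs and 9.04 ± 0.19 (SD, n = 3) in AIR lungs.

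The lower type II level came from the lower range. The mean over the 23 genes was 0.69 lower there in CS lungs (a difference of -0.685), and 0.05 higher in CS lungs of the higher range, where 0 genes passed the threshold with limma. Among all 22179 genes 472 were lower within the higher range. A count of 0 in this or the shorter lists below lies near that share. Without AIR female 6, 2 genes were lower, and without AIR male 4, AIR female 8 or CS female 9, 5 were. With the heart marker mean as a covariate, 1 of the 23 genes (Fasn, 1 of the 8) was past the threshold, and the median difference was -0.23. Over all 22179 genes that fit called 650 lower, and what lowered the count of type II genes was not tested. Cebpa, a transcription factor of type II cell maturation, had a lowest, median and highest value of 4.28, 4.53 and 5.10 in CS lungs, against 4.80, 5.13 and 5.04 in the AIR lungs. The 5 CS lungs of the lower range lay below every AIR lung, and the 2 of the higher range lay among them. Its difference of -0.41 ± 0.17 (SE) had a limma adjusted p of 0.608 and an exact permutation p of 0.075. It was not past the threshold without AIR female 6 (-0.34) or without AIR female 8 (-0.39).

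Scd1, the desaturase that makes monounsaturated fatty acids, had the most negative difference among the genes past the threshold with a mean of at least 3. It had a lowest, median and highest value of 3.17, 5.57 and 7.88 in CS lungs, against 7.75, 7.73 and 7.57 in AIR male 4, female 6 and female 8. The CS lungs spread over several log2 units, and the highest of them exceeded the AIR lungs. The difference was -2.04 ± 0.72 (SE), with -2.84 in the lower and -0.13 in the higher range.

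Among 18 club cell and airway secretory genes, 6 were lower and 1 higher, with a median difference of -0.20. Within the higher range 0 of the 18 were lower, and the median was 0.04. Cyp4b1, a cytochrome P450 of club cells, had a lowest, median and highest value of 3.29, 4.09 and 4.59 in CS lungs, against 5.14, 4.81 and 4.75 in AIR male 4, female 6 and female 8. All CS lungs lay below all AIR lungs. Its difference was -0.84 ± 0.22 (SE), with a limma adjusted p of 0.456, and -0.92 in the lower and -0.46 in the higher range. Scgb1a1, the secretoglobin that club cells release, averaged 8.51 ± 0.83 (SD, n = 7) in CS lungs and 9.44 ± 0.35 (SD, n = 3) in AIR lungs, with differences of -1.63 in the lower and 0.07 in the higher range. The keratin Krt18 was the member that was higher, by 0.28. Without AIR female 6, AIR female 8 or CS female 9, 2, 1 and 3 of the 18 genes were lower. Of 16 alveolar type I genes 2 were lower (Aqp5, a water channel, and Rtkn2), and of 16 ciliated cell genes 0 passed the threshold in either direction with limma.

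The list of fatty acid and glycerolipid synthesis shares Fasn and Scd1 with that of type II cells. Of its 19 genes, 5 were lower and 0 higher, with a median difference of -0.10 and a positive difference in 6. The mean over the 19 genes differed by -0.38 in the lower and by 0.02 in the higher range, where 0 genes were lower. Gpam, the enzyme of the first step of glycerolipid synthesis, had a lowest, median and highest value of 6.45, 6.68 and 7.14 in CS lungs, against 7.25, 7.58 and 7.45 in AIR male 4, female 6 and female 8. Its groups did not overlap, and the difference was -0.63 ± 0.16 (SE), a 1.54-fold change, with a limma adjusted p of 0.456, and -0.91 in the lower and -0.22 in the higher range. Fasn, the fatty acid synthase, averaged 7.13 ± 0.37 (SD, n = 7) in CS lungs and 7.76 ± 0.07 (SD, n = 3) in AIR lungs, with differences of -0.87 in the lower and -0.13 in the higher range. Srebf1, the transcription factor that drives these genes, averaged 3.77 ± 0.31 (SD, n = 7) in CS lungs and 4.27 ± 0.34 (SD, n = 3) in AIR lungs, and without AIR male 4 its difference was -0.32 and not past the threshold.

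Of 15 cholesterol synthesis genes, 5 were lower and 0 higher, 14 had a negative difference, and the median was -0.24. The mean over the 15 genes differed by -0.48 in the lower and by 0.08 in the higher range, where 0 genes were lower. Msmo1, a sterol oxidase of the pathway, averaged 3.99 ± 0.22 (SD, n = 7) in CS lungs and 4.47 ± 0.40 (SD, n = 3) in AIR lungs, and without AIR female 6 its difference was -0.29 and not past the threshold. Insig1, which holds the sterol sensor in the endoplasmic reticulum, was 0.66 lower in CS lungs (a difference of -0.66), with -1.19 in the lower and 0.22 in the higher range. Leaving out AIR female 6 left 1 gene of the 15 lower, and leaving out AIR male 4, AIR female 8 or CS male 2, male 4, female 7 or female 9 left 3 each.

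**Figure D3:**
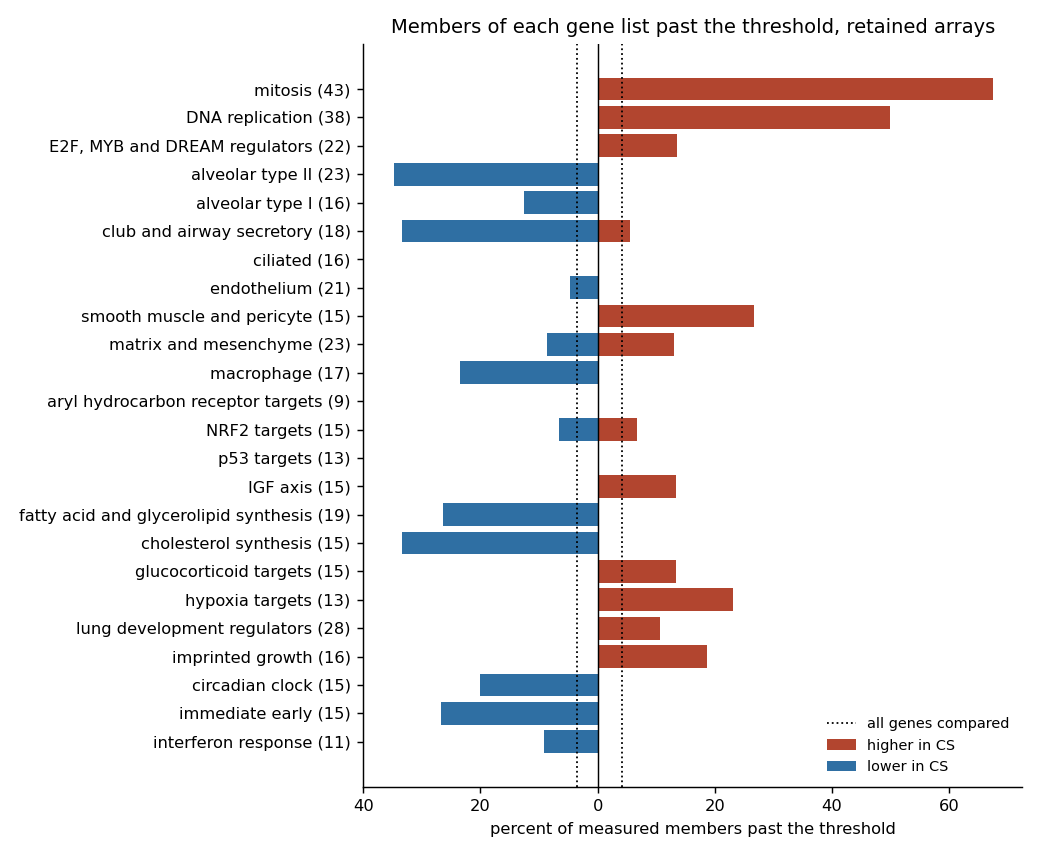
Percent of the measured members of 24 gene lists past the study threshold in the retained lungs, to the right for genes higher and to the left for genes lower in CS than in AIR, with the number of measured members beside each list name. Dotted lines mark the shares among all genes (4.17% higher and 3.44% lower), and those furthest past them are mitosis (67.4%), DNA replication, smooth muscle and pericyte (26.7%) and hypoxia targets (23.1%) on the higher side, and alveolar type II (34.8%), club, cholesterol, immediate early, fatty acid, macrophage and clock lists on the lower side.

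In the mesenchyme, genes of contractile cells included 4 of 15 that were higher and 0 lower, with a median difference of 0.06. Acta2, the actin of smooth muscle and myofibroblasts, had a lowest, median and highest value of 8.32, 8.55 and 8.91 in CS lungs, against 8.10, 8.14 and 8.07 in AIR male 4, female 6 and female 8. All CS lungs exceeded all AIR lungs, and the difference was 0.48 ± 0.13 (SE), with 0.50 in the lower and 0.36 in the higher range. Myh11, the smooth muscle myosin, and Rgs5, a pericyte gene, were 0.50 and 0.49 higher in CS lungs. Of 23 matrix and mesenchyme genes, 3 were higher (Lox, Vcan and Wnt2) and 2 lower (Fn1 and Inmt). Wnt2, a mesenchymal signal that specifies the lung, averaged 4.63 ± 0.22 (SD, n = 7) in CS lungs and 4.19 ± 0.12 (SD, n = 3) in AIR lungs. Inmt, a methyltransferase, averaged 3.36 ± 0.90 (SD, n = 7) in CS lungs and 4.89 ± 0.40 (SD, n = 3) in AIR lungs, with differences of -2.43 in the lower and -0.10 in the higher range.

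Of 28 regulators of lung development, 3 were higher (Foxp2, Sox2 and Gli1) and 0 lower, with a median difference of 0.06. In the dropped lungs 0 were higher and 0 lower, with a median of -0.02. Sox2 lay near or below the array medians of 2.104 to 2.196 in most lungs, from 1.65 to 2.60 in CS and from 1.28 to 1.64 in AIR. Foxp2, a transcriptional repressor of the distal airway epithelium, ranged from 5.76 to 6.64 in CS lungs, with a median of 6.26, and was 5.64, 5.45 and 5.59 in the AIR lungs. The groups did not overlap, and the difference of 0.67 ± 0.18 (SE) was 0.96 in the lower and 0.16 in the higher range.

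The insulin-like growth factors themselves were higher, while the rest of their axis did not pass the threshold in the retained lungs. Of 15 genes of the axis, 2 were higher (Igf1 and Igf2) and 0 lower. Igf1, a growth factor of the fetal lung mesenchyme, had a lowest, median and highest value of 4.03, 4.37 and 4.91 in CS lungs, against 3.970, 3.976 and 3.999 in AIR male 4, female 6 and female 8. The AIR lungs were nearly equal, and all CS lungs exceeded them, the lowest by little. Its difference of 0.43 ± 0.17 (SE) had a limma adjusted p of 0.608 and an exact permutation p of 0.0417. It was not past the threshold without AIR male 4 (0.43), AIR female 6 (0.43) or AIR female 8 (0.44), nor with the number range as a block (0.34). Within the ranges it differed by 0.55 in the lower and by 0.16 in the higher one. Igf2, the imprinted fetal growth factor, averaged 7.07 ± 0.20 (SD, n = 7) in CS lungs and 6.70 ± 0.02 (SD, n = 3) in AIR lungs. Igfbp3, a binding protein of both factors, averaged 4.65 ± 0.59 (SD, n = 7) in CS lungs and 5.18 ± 0.59 (SD, n = 3) in AIR lungs and did not pass the threshold, with differences of -1.25 in the lower and 0.35 in the higher range. Without CS female 12 (-0.69) or AIR male 4 (-0.87) it was past the threshold. Of 16 imprinted growth genes, 3 were higher (Igf2, Grb10 and Nnat) and 0 lower.

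Of 17 macrophage genes, 4 were lower (Csf1r, Itgax, Siglec1 and Chil3) and 0 higher, and 2 were lower without AIR male 4. Of the 9 with a mean of at least 3, 1 was lower, and over all 21 lungs 1 of the 17 was. Csf1r, the receptor for the growth factor of macrophages, ranged from 3.72 to 4.09 in CS lungs, with a median of 3.83, and was 4.03, 4.50 and 4.58 in the AIR lungs. Only AIR male 4 lay inside the CS range. The difference was -0.46 ± 0.14 (SE), with -0.54 in the lower and -0.53 in the higher range, and -0.44 in the dropped arrays. Chil3, a chitinase-like protein of alveolar macrophages, averaged 1.51 ± 0.23 (SD, n = 7) in CS lungs and 2.06 ± 0.22 (SD, n = 3) in AIR lungs, below the array medians of 2.104 to 2.196 in both groups. The means of Siglec1 lay on either side of these medians. For Itgax the CS mean lay below them and the AIR mean (from 2.43, 1.53 and 2.41) among them.

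Of 9 aryl hydrocarbon receptor targets, which metabolise smoke constituents, and of 13 p53 targets, 0 passed the threshold with limma in either direction. Of 15 genes listed for NRF2 and the antioxidant response, 1 was higher (Keap1) and 1 lower (Srxn1). Of 15 glucocorticoid targets, 2 were higher, and of 11 interferon response genes 1 was lower. Of 13 hypoxia targets, 3 were higher (Pgk1, Egln3 and Ndrg1) and 0 lower, with a median difference of 0.22, against -0.10 in the dropped arrays. Ndrg1, a stress gene induced by low oxygen, averaged 7.14 ± 0.35 (SD, n = 7) in CS lungs and 6.52 ± 0.37 (SD, n = 3) in AIR lungs, and without AIR female 6 its difference was 0.48 and not past the threshold. Of 15 immediate early genes, 4 were lower (Egr1, Egr2, Klf2 and Klf4), and of 15 clock genes 3 were lower (Arntl, Nr1d1 and Bhlhe41). In every retained CS lung Srxn1 and Egr2 lay below 2.196, the highest array median. Of 21 endothelial genes, 1 was lower. It was Cldn5, the tight junction protein of endothelium, at 5.26 ± 0.19 (SD, n = 7) in CS lungs and 5.74 ± 0.19 (SD, n = 3) in AIR lungs.

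Of the genes with a mean of at least 3 and the lowest p, Aurkb, Rrm2, Ccnb2 and Rfc5 are described above, and others stood outside these lists. Lgr6, an R-spondin receptor that marks stem cells of skin, had a lowest, median and highest value of 4.58, 4.66 and 4.94 in CS lungs, against 3.98, 3.92 and 3.81 in AIR male 4, female 6 and female 8. The gap between the groups was wider than the range of either. The difference was 0.82 ± 0.12 (SE), a 1.77-fold change, with a limma adjusted p of 0.123 and an exact permutation p of 0.00833. It was 0.84 in the lower and 0.73 in the higher range, and between 0.77 and 0.86 with any 1 lung left out.

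Cd59a, which shields cells from the membrane attack complex of complement, had a lowest, median and highest value of 3.33, 3.84 and 4.11 in CS lungs, against 2.49, 2.86 and 2.18 in AIR male 4, female 6 and female 8. All CS lungs lay above all AIR lungs. The difference was 1.26 ± 0.20 (SE), a 2.40-fold change, with a limma adjusted p of 0.123, and 0.89 in the lower and 1.49 in the higher range. Ncam1, a cell adhesion molecule of nerve and muscle, averaged 4.71 ± 0.30 (SD, n = 7) in CS lungs and 3.79 ± 0.25 (SD, n = 3) in AIR lungs. Usp22, a histone deubiquitinase, averaged 6.61 ± 0.15 (SD, n = 7) in CS lungs and 5.99 ± 0.14 (SD, n = 3) in AIR lungs. Col12a1, a collagen that lies along fibrils of other collagens, averaged 4.10 ± 0.26 (SD, n = 7) in CS lungs and 3.37 ± 0.12 (SD, n = 3) in AIR lungs. In each of the 3 the groups did not overlap, and the differences within the ranges were between 0.49 and 0.92. Spata24 was 1.02 higher in CS lungs, also without overlap.

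The 10 genes with the lowest p among those lower in CS lungs all had a negative difference in both ranges. Mid1ip1, which activates the enzyme of the first step of fatty acid synthesis, averaged 4.86 ± 0.23 (SD, n = 7) in CS lungs and 5.43 ± 0.08 (SD, n = 3) in AIR lungs, with differences of -0.65 in the lower and -0.43 in the higher range. Trib1, a pseudokinase that restrains lipid synthesis in liver, averaged 2.94 ± 0.22 (SD, n = 7) in CS lungs and 3.52 ± 0.24 (SD, n = 3) in AIR lungs. Lmo2, a cofactor of blood and vessel development, averaged 2.92 ± 0.18 (SD, n = 7) in CS lungs and 3.41 ± 0.09 (SD, n = 3) in AIR lungs. Rel, a subunit of NF-κB, averaged 2.92 ± 0.13 (SD, n = 7) in CS lungs and 3.42 ± 0.24 (SD, n = 3) in AIR lungs. C6, a component of the membrane attack complex, and Bex2 had differences of -0.79 and -0.85, which were -1.22 and -1.23 in the lower range and -0.35 and -0.32 in the higher range. In none of these genes did the groups overlap, and their limma adjusted p was 0.456 throughout.

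**Figure D4:**
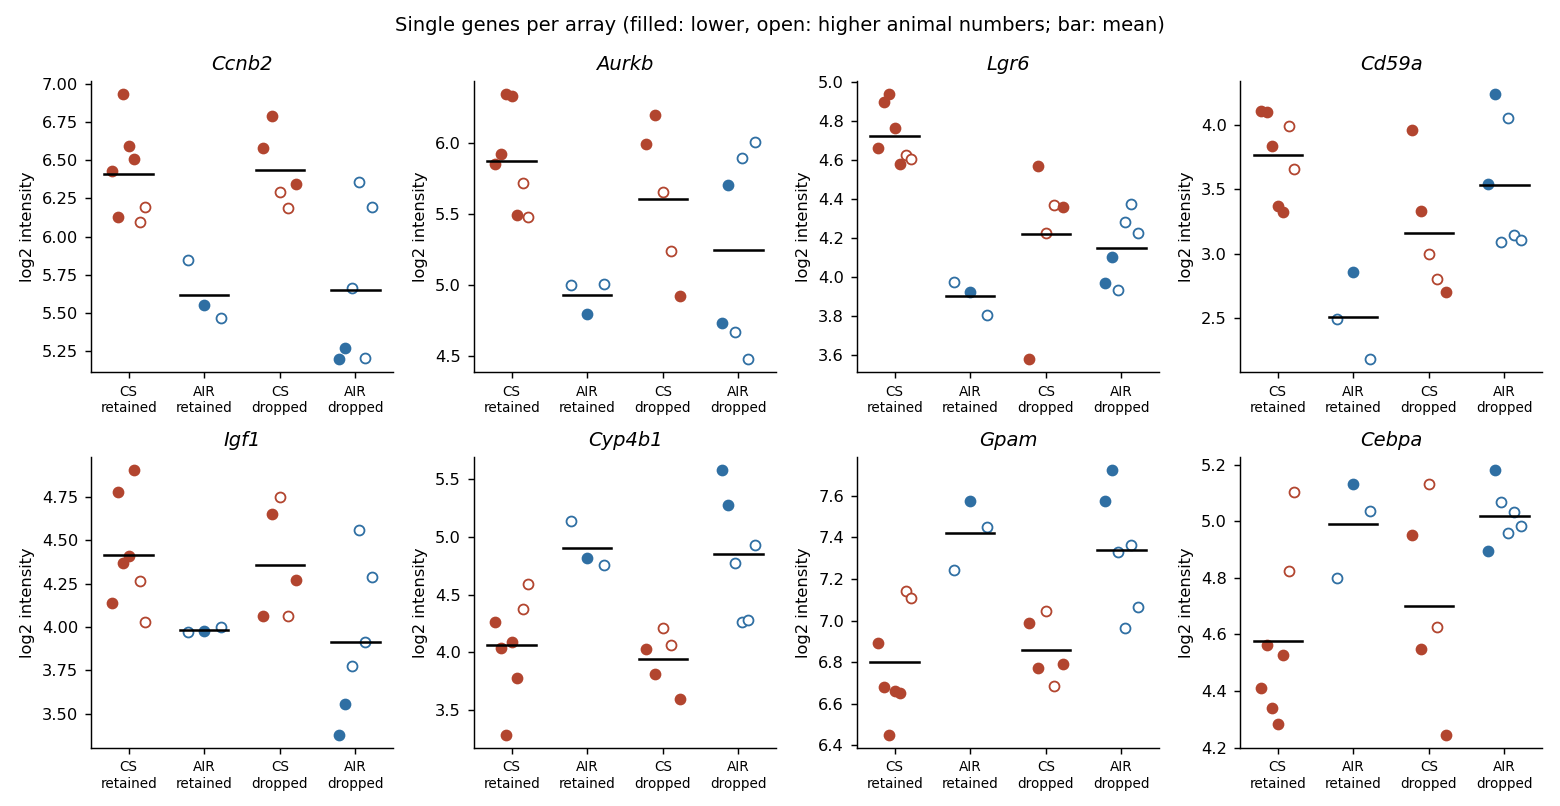
Log2 intensity of 8 genes in retained CS (n = 7), retained AIR (n = 3), dropped CS (n = 5) and dropped AIR (n = 6) lungs, 1 point per lung, filled for lower and open for higher animal numbers, with black bars for group means. Lgr6 and Cd59a separate CS from AIR in the retained lungs (differences of 0.82 and 1.26) and not in the dropped lungs (0.07 and -0.37), while Ccnb2 differs by 0.79 in both.

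The dropped lungs, which share no array with the retained ones, were set beside them. They came from 4 male and 1 female CS fetuses and from 4 male and 2 female AIR fetuses. Of the CS lungs 3 were of the lower and 2 of the higher range, and of the AIR lungs 2 and 4. Retained and dropped lungs thus also differed in sex and range, which cannot be told apart from what the rule removed. In the dropped lungs 601 genes (2.71%) were higher and 631 (2.85%) lower in CS than in AIR at the same threshold. Over all 21 lungs 581 (2.62%) were higher and 459 (2.07%) lower. Of the 924 genes higher in retained lungs, 85 (9.20%) were higher in dropped lungs too, which were 14.1% of the genes higher there, and 12 were lower. Of the 764 lower genes, 53 (6.94%) were lower in dropped lungs too, or 8.40% of the genes lower there, and 11 were higher. A difference of the same sign in dropped lungs was found for 64.0% of the genes past the threshold in retained lungs, against 54.2% of all genes. Across genes, which are not independent, the differences in retained and dropped lungs had a Pearson r of 0.195, and of 0.392 for the 9627 genes with a mean of at least 3.

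By their medians, cell division, type II and club cell genes had the same direction in the dropped lungs, where exposure and range were also unevenly mixed. The mitosis genes had a median difference of 0.46 there, 21 of 43 were higher and 0 lower, and 15 were higher in both sets. The replication genes had a median of 0.35, with 11 of 38 higher, 6 of them in both sets. The type II genes had a median of -0.32, with 7 of 23 lower, 3 of them in both sets, and the club cell genes a median of -0.29, with 4 of 18 lower, 3 of them in both sets. In dropped lungs Ccnb2 differed by 0.79, Cyp4b1 by -0.91, Gpam by -0.48, Rrm2 by 0.74 and Igf1 by 0.45, each past the study threshold there as well. Cholesterol synthesis genes had a median of -0.06 in the dropped lungs, with 1 of 15 lower. In dropped lungs of the lower range, mitosis means were 5.15 to 5.65 in CS and 4.28 and 4.63 in AIR lungs. Type II means there were 6.96 to 7.38 in CS and 7.79 and 7.85 in AIR lungs. In the higher range the dropped CS lungs lay within the AIR range for mitosis (4.91 and 4.89, AIR 4.45 to 5.27). So they did for type II (7.56 and 7.37, AIR 7.27 to 7.64) and club cell genes (5.375 and 5.336, AIR 5.102 to 5.495).

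The leading single genes of the retained lungs were mostly not past the threshold in the dropped ones. Lgr6 averaged 4.22 in dropped CS and 4.15 in dropped AIR lungs, a difference of 0.07, and Usp22 differed by -0.02 there. Cd59a averaged 3.16 in dropped CS and 3.53 in dropped AIR lungs, a difference of -0.37. The difference of the effects, retained minus dropped, was tested in all 21 lungs with a shared spread. With a false discovery rate of 10% as the limit, 0 of 22179 genes were called by limma, with a lowest adjusted p of 0.859 and 1104 genes (4.98%) at an unadjusted p under 0.05. The lowest unadjusted p belonged to Nt5c2, a nucleotidase, with a difference of effects of 0.84 ± 0.18 (SE, limma adjusted p 0.859), from 0.47 in retained and -0.37 in dropped lungs. Without AIR female 6 the retained difference of Nt5c2 was 0.35 and not past the threshold. Cd59a had a difference of effects of 1.63 ± 0.36 (SE, limma adjusted p 0.859). Haus2, a part of the complex that branches spindle microtubules, had one of 0.93 ± 0.24 (SE, limma adjusted p 0.942), and Lgr6 one of 0.75 ± 0.21 (SE, limma adjusted p 0.942). No gene was thus shown to respond differently in the retained and the dropped lungs.

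**Figure D5:**
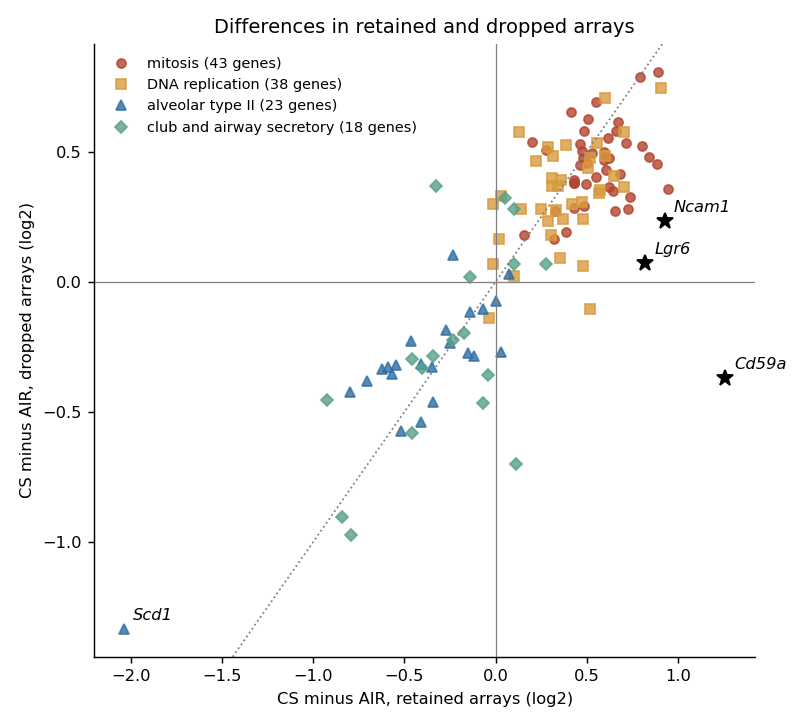
CS minus AIR difference (log2) in retained lungs (x axis) against dropped lungs (y axis) for the members of 4 gene lists and 3 single genes (stars), with a dotted line of equality. All 43 mitosis genes lie right of 0, their medians being 0.55 in retained and 0.46 in dropped lungs, while Cd59a lies at 1.26 and -0.37.

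Transcripts of other tissues that the rule did not use were counted with the same threshold. Of 15 further heart genes, 0 were higher and 4 lower in CS lungs, with a median of -0.42, and their mean per lung had a lowest, median and highest value of 3.52, 3.75 and 4.59 in CS lungs and of 3.85, 4.47 and 4.90 in AIR lungs. The 2 CS lungs of the higher range were the highest of the CS lungs, and the difference was -0.75 in the lower and 0.21 in the higher range. These genes move with the marker set that chose the arrays and are not independent of it. The difference in heart transcripts, like those in mitotic and type II genes, was thus largest in the lower range. AIR male 4, of the higher range, had a heart mean of 3.85, inside the 3.52 to 3.89 of the lower-range CS lungs. Its mitosis mean of 4.85 lay below those of these CS lungs, and its type II mean of 7.63 above them. The heart covariate fits given above used the rule's own markers, and the part of heart transcripts in those results was not otherwise tested. Among 12 thymocyte genes, 2 were higher, and among 13 oesophagus and 14 liver genes 0 passed the threshold with limma in either direction. Skeletal muscle genes had 1 of 13 higher, brown fat genes 1 of 10 lower, airway cartilage genes 1 of 15 higher and erythroid genes 1 of 7 higher. The skeletal muscle mean of CS female 12 was 3.72, while the other CS lungs ranged from 2.42 to 2.93.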

How the data were processed

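The authors processed the scans with Affymetrix Expression Console 1.3.0.187 and deposited log2 intensities per probe set made by robust multi-array averaging (RMA), with the background corrected, the arrays brought to a common distribution by sketch quantiles and the probes of a set condensed by median polish. By the methods, 3 AIR arrays were left out after quality control. Detection calls were not used here, so low values may lie in the background, and the number of arrays limits the precision. From 41345 probe sets, 802 redundant ones were removed. A gene was represented by the brightest probe set that carries only its symbol (22179 genes).

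CS minus AIR was fitted in R 4.3.3 with limma 3.58.1 (lmFit, then eBayes), sexes merged, in the 10 retained arrays, in the 11 dropped arrays, and in all 21 arrays. A fit with 4 means (exposure in retained and in dropped arrays) tested the difference of the effects. Adjusted p-values follow Benjamini-Hochberg over all genes. The fits were tested on simulated data of the same design. Exact two-sided permutation tests used Python 3.11.15 and numpy 2.4.6. Of 588 genes in 32 lists, 550 were measured. The rule for retained arrays, the lists and the genes were chosen with earlier results of these data known.

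Named genes were the 10 in each direction with the lowest p past the study threshold and a mean of at least 3, leaving out clone, predicted and small RNA names, together with the lowest-p member of each list, the rule's markers, the 3 genes whose effects differed between retained and dropped arrays at the lowest p, and E2f7, E2f8, Mybl2, Cebpa, Srebf1, Igf1 and Igfbp3, which the study names. Further list members past the threshold were picked as examples after their values were seen. Alternatives changed the limit of the array rule, covariates (sex, marker means), blocks, arrays included, genes tested, normalization and variance model. The heart covariate and the use of shared probe sets for Krt5 and Rag1 were added after seeing the data.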

Additional observations from a re-analysis of the deposited data

Results flagged for a closer look

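Among the 7 retained CS lungs, the lowest or highest value of 50 named genes and 32 gene lists was compared with its neighbour, and in 7 of the 82 comparisons the gap, as a share of the range, exceeded Dixon's critical value for 7 arrays. Chance marks about 1 in 20 such groups. CS female 7 stood apart in 4 of them. It was the highest for Col12a1, at 4.66 (next 4.12), for Ndrg1, at 7.835 (next 7.23), and for the mean of the hypoxia targets, at 6.099 (next 5.66), and the lowest for Mid1ip1, at 4.357 (next 4.83). Spata24 was 5.916 in CS male 4 (next 5.28), and Rel was 2.656 in CS female 11 (next 2.87). The mean of the skeletal muscle genes was 3.72 in CS female 12 (next 2.93). Without CS female 7, the calls for Col12a1, Mid1ip1 and Ndrg1 stayed past the study threshold.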

How the results depend on the processing

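The retained lungs held 3 AIR lungs, 1 of them in the lower range of animal numbers. Limits of 0.75 in place of 1, dropping for skeletal muscle or brown fat as well, and shared probe sets for Krt5 and Rag1 kept the same 10 lungs. Genes past the study threshold numbered 1688, between 1460 and 1797 with any 1 lung left out, 1251 with the number range as a block, 1040 over all 21 lungs, 935 with the marker set means as covariates there, and 941 among genes with a mean of at least 3 (653 higher and 288 lower). Quantile normalization gave 752 higher and 857 lower, against 924 and 764, and centring gave 813 and 833. At a false discovery rate of 10%, 0 genes became 6 with a limit of 1.5, 3 over all lungs, 2 among genes with a mean of at least 3, 4 with trended and robust variances, and between 0 and 4 with any 1 lung left out. The difference between retained and dropped lungs had 0 calls under every alternative run. Over all 21 lungs, 683 genes with a mean of at least 3 passed.

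Of 47 named genes past the threshold, 8 stayed past it under all 28 alternatives (Lgr6, Ncam1, Col12a1, Rrm2, Ccnb2, Rfc5, Mid1ip1 and Ldlrad1), and 12 were lost without AIR female 6. Directions turned for Tnnt3 (-0.045 with a limit of 1.5 and -0.092 over all lungs), Mybl2 (0.038, 0.060 and, with the mean of its probe sets, 0.158), Bcl7b and Cox8b with marker covariates (0.008 and 0.044), and, within the higher range, Cox8b (0.003), Cebpa (0.046) and Igfbp3 (0.353). The causes were not tested. Within males and within the lower range only 1 AIR lung was left, so no such fit was made. No paired analysis was possible because retained CS and AIR lungs share only 1 replicate number. Over all 21 lungs the replicate block gave 1357 genes against 1040, with same-number correlations from -0.0851 to 0.127, so the numbers were not taken as pairs.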

Other observations

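Several genes outside the lists, chosen after their values were seen, also differed at the study threshold in the retained lungs. Stil, which is needed to build centrioles, averaged 4.42 in CS lungs and 3.53 in AIR lungs, and Shcbp1, a protein of the dividing cell's midbody, averaged 4.56 in CS lungs and 3.65 in AIR lungs. In both genes every CS lung lay above every AIR lung, and the differences in the dropped lungs were 0.62 and 0.26. Hc, the complement component C5, averaged 6.03 in CS lungs and 7.28 in AIR lungs without overlap, a difference of -1.25 with a limma adjusted p of 0.58. S100g, a small calcium-binding protein, averaged 6.96 in CS lungs and 8.48 in AIR lungs, and Crh, the corticotropin-releasing hormone, averaged 3.45 in CS lungs and 2.44 in AIR lungs. In these 2 genes the groups overlapped, and the differences in the dropped lungs were -0.78 and 0.18.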
